A study of Drosophila sechellia and Drosophila melanogaster and Drosophila simulans with 18 samples.

Results

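Expression on control food was compared between *D. melanogaster* and *D. simulans*, by the rank of each gene within its own species. Genes were paired where both species' tables list the identical symbol, once in each table, after the species prefix was removed. Of the 17649 genes listed for *D. melanogaster* and the 15372 listed for *D. simulans*, 462 could be paired in this way, because 14820 of the *D. simulans* entries carry only a GD number. A further requirement of at least 1 FPKM (fragments per kilobase of transcript, scaled to the number of mapped fragments) in either species left 291 genes, of which 266 reached 1 FPKM in both species, 17 in *D. melanogaster* only and 8 in *D. simulans* only. The flies were whole adult females, up to 3 days after eclosion, of *D. melanogaster* strain 14021-0231.36 and *D. simulans* strain 14021-0251.195, 1 strain per species, kept for 24 h on instant food without hexanoic acid (HA) after rearing on cornmeal medium, and each group comprised 3 libraries made from pools of flies. The same strains on food with 0.23% HA, again 3 libraries each, gave a second set of values from libraries that the comparison of control food does not use. Within a species the HA and control values share the strain, genome, annotation and normalization. Agreement between the diets therefore cannot separate a difference in expression from one in the gene model or in mapping. Strain and species cannot be told apart in this design.

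*D. melanogaster* and *D. simulans* are closely related species, both human commensals and dietary generalists that feed on a wide range of decaying fruit. Expression in a whole female is dominated by the ovary, fat body, gut and flight muscle, so differences between species can reach a whole-body sample through the activity of a gene, through the size of the tissue that expresses it, or through the gene model against which reads were counted. In whole flies fewer cells of a type and less RNA per cell cannot be told apart. The 291 genes include 25 odorant-binding protein genes, 25 genes of immune recognition and signaling, 9 antimicrobial peptide genes, 8 heat shock genes, 4 metallothionein genes and 9 microRNA genes, and the paired genes hold no odorant or gustatory receptor and no gene of the mitochondrial genome.

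Each deposited value is pooled by the authors over the 3 libraries of a group. There is thus 1 value per gene, species and diet, with no SD and no test of any difference, and the depth of each library is not in the tables. Because each species was normalized alone, no fold change between the species is given. Instead each gene received a percentile among the 291 paired genes of its own species (near 0 for the lowest and near 100 for the highest FPKM), and the rank shift of a gene is its percentile in *D. simulans* minus its percentile in *D. melanogaster*. A shift of at least 25 points was called. The only other measure of spread in the tables is the difference between the diets within a species, which holds any response to HA as well as the noise of 3 libraries.

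Male markers were near 0 in both tables, and markers of female tissues were detected. Of 16 markers of the male accessory gland, ejaculatory duct and testis, 12 could be paired, and their summed FPKM on control food was 1.18 in *D. melanogaster* and 1.40 in *D. simulans*, with 6 and 4 of them listed at 0. Yp2, a yolk protein made by the fat body and ovary, was listed at 6830 FPKM in *D. melanogaster* and 16246 FPKM in *D. simulans*, although the *D. simulans* locus of Yp2 spans 41751 bases and holds other genes. For the muscle genes Mlc1 and Act88F the sum was 2983 and 3587 FPKM. The eggshell gene Cp16 was listed at 1083 and 4741 FPKM in the same order, the maternal gene bcd at 8.20 and 10.01 FPKM, and the 3 paired midgut markers at a sum of 684 and 453 FPKM. None of the eye markers could be paired.

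Most genes held a similar rank in both species. The median absolute rank shift was 8.59 percentile points, and 95 of the 291 genes (32.6%) moved by less than 5 points. Across the 291 genes Spearman's rho between the 2 species was 0.78 on control food and 0.79 on HA food. Between the diets it was 0.97 within *D. melanogaster* and 0.98 within *D. simulans*. These are descriptions across genes, which share libraries and gene models and are not replicates. The diets shifted a gene by a median of 2.06 points in each species, and 95% of genes moved by less than 10.7 points in *D. melanogaster* and 8.08 points in *D. simulans*. Rank differences between the species were thus wider than those between the diets over the whole range, as the cumulative plot shows.

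**Figure D1:**
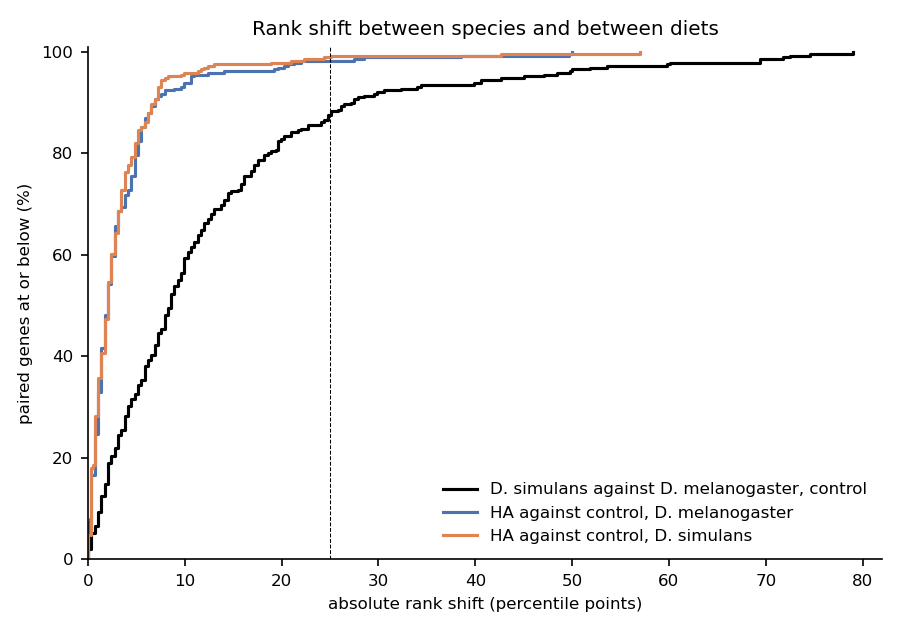
Cumulative share of the 291 paired genes (y axis, percent) at or below an absolute rank shift (x axis, percentile points), for *D. simulans* against *D. melanogaster* on control food (black) and for HA against control food within each species (blue, *D. melanogaster*; orange, *D. simulans*). The dashed line marks 25 points; 36 genes lie beyond it between the species, 5 between the diets in *D. melanogaster* and 3 between the diets in *D. simulans*.

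A shift of at least 25 points was found for 36 of the 291 genes (12.4%), of which 13 (4.47%) ranked higher and 23 (7.90%) ranked lower in *D. simulans*. On HA food 42 genes passed the same limit (14.4%). Of the 36 genes, 29 passed it on both diets in the same direction, 11 of the 13 that ranked higher and 18 of the 23 that ranked lower in *D. simulans*. Among the 36 are 33 protein-coding genes, and for each of these 33 the shift between species exceeded its shift between diets in either species. Choosing genes by a large species shift nearly fixed this outcome in advance. Only 2 protein-coding genes in *D. melanogaster* and 0 in *D. simulans* shifted by 25 points or more between the diets. The limit itself has no biological meaning, and a rank shift does not scale with the difference in FPKM. Crz was called at 4.40 FPKM in *D. melanogaster* and 10.5 FPKM in *D. simulans*, whereas Obp56d at 523 and 38.2 FPKM was not. A kept rank therefore does not mean equal expression. Just inside it lie the genes Crz with 25.1 points and PGRP-SD with -25.1 points, and just outside it l(1)1Bi and mir-92b with 24.7, Mal-A8 with 24.4, pho with -24.7 and Obp56d with -24.1 points.

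**Figure D2:**
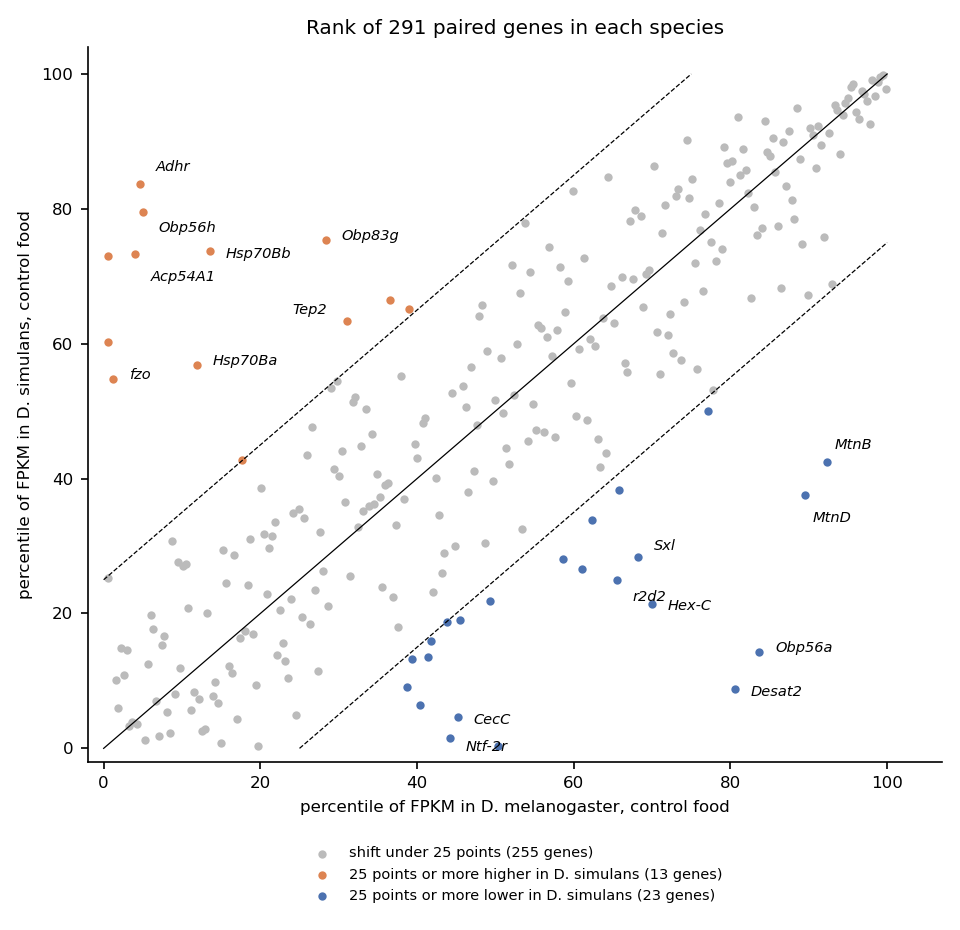
Percentile of FPKM on control food in *D. melanogaster* (x axis) and *D. simulans* (y axis), 1 point per gene for 291 paired genes. The solid line marks equal rank and the dashed lines a shift of 25 points; 13 genes (orange) lie above and 23 (blue) below them.

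The protein-coding gene with the largest shift upwards in *D. simulans* was Adhr, the neighbor of the alcohol dehydrogenase gene Adh, with which it shares a dicistronic transcript in *D. melanogaster*. Adhr was listed at 1.27 FPKM in *D. melanogaster* and 99.8 FPKM in *D. simulans* on control food, and at 1.07 and 47.3 FPKM on HA food. Its percentile was 4.64 in the first and 83.7 in the second species, a shift of 79.0 points. Adh itself hardly moved, at 4036 and 2090 FPKM with a shift of -1.72 points. In both tables Adh and Adhr lie in 1 shared locus, and in the BDGP6 annotation used here (chromosome 2L, 14615552 to 14618902 for either gene) their exons overlap on the same strand. The part of this overlap in the values was not tested.

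Of the other genes that ranked higher in *D. simulans*, Acp54A1 encodes a protein of the male accessory gland. It was listed at 1.247 FPKM in *D. melanogaster* and 50.1 FPKM in *D. simulans* (0.94 and 38.5 FPKM on HA food), a shift of 69.4 points. The span of the gene is 306 bases in the *D. melanogaster* and 1099 bases in the *D. simulans* table. By comparison, 13 of the 14 paired Acp genes did not reach 1 FPKM in either species. The gene fzo, which encodes the mitofusin of the male germ line, was listed at 0.06 FPKM in *D. melanogaster* and 18.1 FPKM in *D. simulans* (0.04 and 14.5 FPKM on HA food), a shift of 53.6 points. Its locus holds 2 other genes in *D. melanogaster* and 1 in *D. simulans*. The 12 paired male markers were all below 1 FPKM in both species, dj and ocn of the testis among them.

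Tep2, which encodes a thioester-containing protein of the hemolymph, ranked higher in *D. simulans* by 32.3 points, with 8.88 FPKM in *D. melanogaster* and 27.3 FPKM in *D. simulans*. The gene v, encoding the tryptophan dioxygenase of brown eye pigment synthesis, was listed at 11.1 and 31.8 FPKM (29.9 points) and the neuropeptide gene Crz at 4.40 and 10.5 FPKM (25.1 points). All 3 shifts were as large on HA food, with 34.02 points for Tep2, 32.6 points for v and 25.1 points for Crz. The locus spans of v and Crz are alike in the tables, with 1660 and 1690 bases for v and 863 and 857 bases for Crz. Both v and Crz are alone in their loci, whereas the locus of Tep2 holds 1 other gene in each species. Exon structure in *D. simulans* was not compared. Es2 passed the limit on control food with 26.1 points and not on HA food with 22.7 points. Its locus spans 2960 bases with 1 other gene in *D. melanogaster*, and 1838 bases in *D. simulans*.

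The largest shift downwards in *D. simulans* was that of Desat2, an acyl desaturase of cuticular hydrocarbon synthesis that acts in the female pheromone blend of some *D. melanogaster* populations. Desat2 (chromosome 3R of BDGP6, 12436248 to 12437857) was listed at 97.1 FPKM in *D. melanogaster* and 1.25 FPKM in *D. simulans* on control food, and at 106 and 1.20 FPKM on HA food. It ranked at the percentile of 80.6 in *D. melanogaster* and of 8.76 in *D. simulans*, and the shift was -71.8 points on either diet. Exons of 2 genes on the other strand overlap it in the *D. melanogaster* annotation. Its paralog Desat1 moved by -0.34 points.

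Hex-C, which encodes a hexokinase of the fat body and gut, was listed at 45.2 FPKM in *D. melanogaster* and 3.84 FPKM in *D. simulans*, a shift of -48.5 points on control and -49.1 points on HA food. Sxl, the switch gene of female sex determination, was at 41.5 and 5.73 FPKM (-39.9 points), and Imp, an RNA-binding protein gene, at 28.12 and 5.13 FPKM (-34.4 points). For mth, the G protein-coupled receptor gene methuselah, the values were 13.1 and 1.04 FPKM (-34.02 points). All 4 genes also passed the limit on HA food. The signaling genes drk (an adaptor of receptor tyrosine kinases), Src64B (a tyrosine kinase) and Ras64B (a small GTPase) shifted by -27.5, -26.5 and -28.5 points, and the neural genes msi and unc-13 by -29.6 and -26.1 points. Hex-C, mth, msi and Src64B share their loci with other genes in both species, and Sxl, Imp, drk and unc-13 in *D. melanogaster*. The part of these shared loci in the values was not tested.

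**Figure D3:**
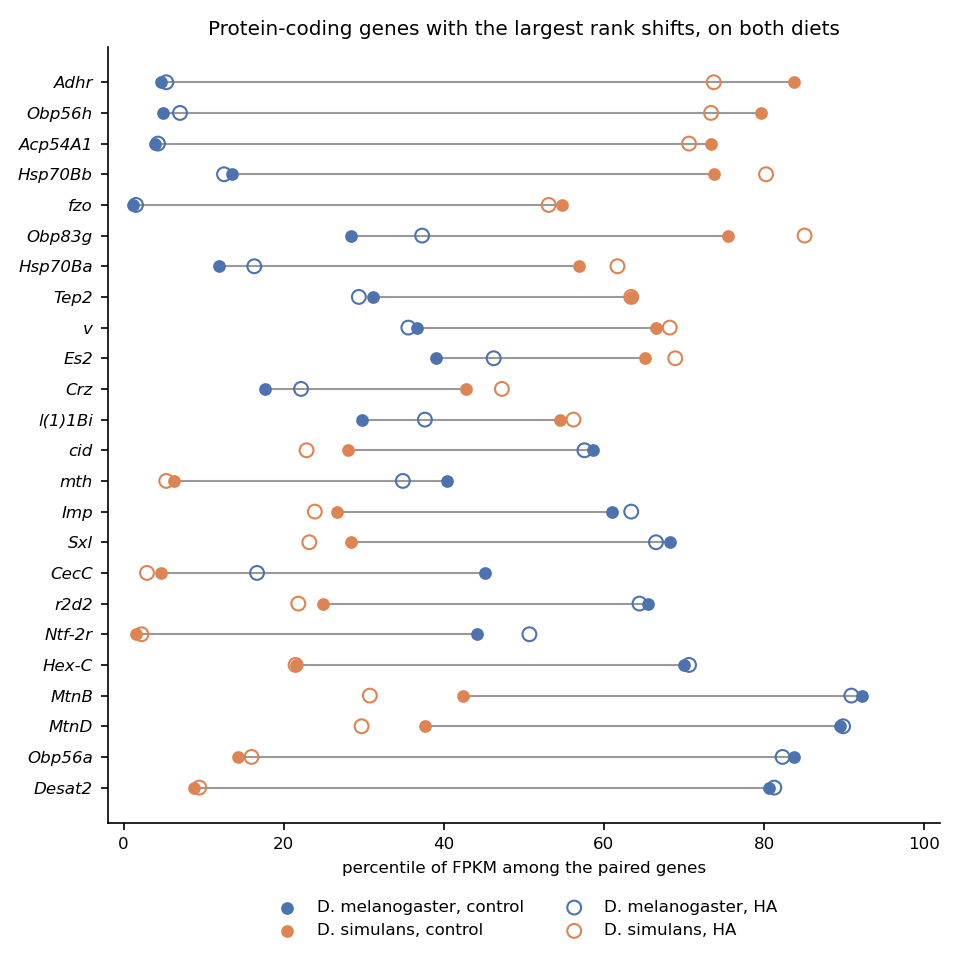
Percentile of FPKM among the 291 paired genes (x axis) for the 12 protein-coding genes with the largest shift in each direction (y axis, ordered by shift). Filled points are the authors' pooled control values and open circles the HA values, blue for *D. melanogaster* and orange for *D. simulans*. For Desat2 the open and filled points nearly coincide (-71.8 points on either diet), while CecC moved from -40.5 points on control to -13.7 points on HA food.

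Odorant-binding proteins carry odorants and other small molecules in the fluid around chemosensory neurons, and several are also made in other tissues. They are the largest family among the paired genes, with 44 symbols paired and 25 at 1 FPKM or more. The family as a whole did not lean to either species. Its median shift was 0.69 points against 0.34 points over all paired genes, 14 genes ranked higher and 11 lower in *D. simulans*, and 3 of the 25 were called (12%, against 12.4% of all). Single members of the family, however, were among the largest shifts in both directions, including neighbors of 1 cluster.

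Within the Obp56 cluster, Obp56h was listed at 1.30 FPKM in *D. melanogaster* and 71.7 FPKM in *D. simulans* on control food and at 1.40 and 46.7 FPKM on HA food. Obp56a went the opposite way, with 111 and 2.14 FPKM on control and 111 and 2.16 FPKM on HA food. The shifts on control food were 74.6 points for Obp56h and -69.4 points for Obp56a. Also in this cluster, Obp56g ranked higher in *D. simulans* (18.7 and 67.1 FPKM, 24.1 points) and Obp56d lower (523 and 38.2 FPKM, -24.1 points), and Obp56e kept its rank (208 and 252 FPKM, 3.09 points). In the *D. simulans* table Obp56g and Obp56h lie in 1 locus of 96099 bases with 5 other genes, and the locus of Obp56a is 1854 bases long against 786 bases in *D. melanogaster*.

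Outside that cluster, Obp83g was listed at 7.69 FPKM in *D. melanogaster* and 58.0 FPKM in *D. simulans* on control food and at 11.4 and 110 FPKM on HA food, a shift of 47.1 and 47.8 points. It is alone in its locus in both tables, with spans of 632 and 628 bases. All 3 members of the Obp57 cluster at 1 FPKM or more ranked lower in *D. simulans*, none of them past the limit on control food. Obp57a was at 274 and 34.8 FPKM (-22.7 points), Obp57c at 270 and 54.1 FPKM (-14.4 points) and Obp57b at 53.3 and 20.6 FPKM (-16.2 points). The most abundant member of the family, Obp99c, kept its rank with 1388 and 2454 FPKM and a shift of 0.69 points.

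**Figure D4:**
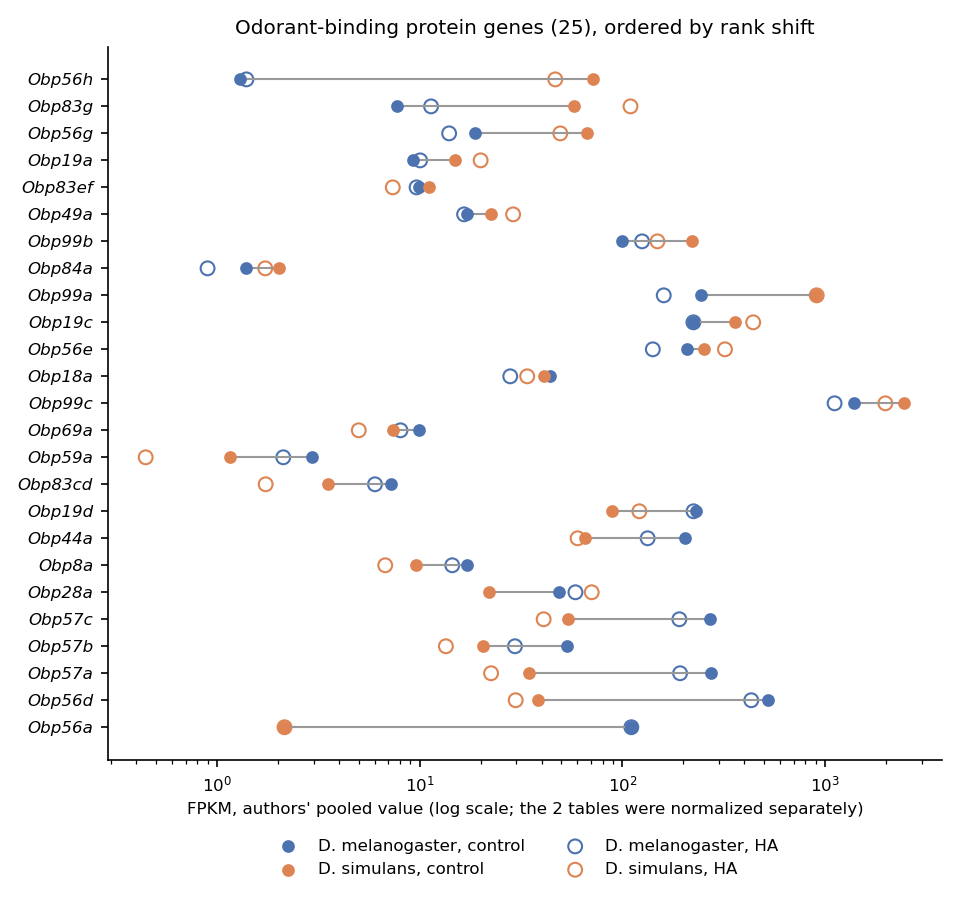
FPKM of 25 odorant-binding protein genes (x axis, log scale; the tables were normalized separately, so only order within a species is compared), ordered by rank shift from Obp56a at -69.4 to Obp56h at 74.6 points. Filled points are control values and open circles HA values, blue for *D. melanogaster* and orange for *D. simulans*.

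Stress genes differed by family. The inducible chaperone Hsp70 is encoded by near-identical copies, of which 4 were paired, and all 4 ranked higher in *D. simulans*, by 14.4 points (Hsp70Ab), 19.6 points (Hsp70Aa), 45.0 points (Hsp70Ba) and 60.1 points (Hsp70Bb). Hsp70Bb was listed at 3.32 FPKM in *D. melanogaster* and 51.0 FPKM in *D. simulans*, where its model is a fragment of 581 bases on an unplaced scaffold, against 2347 bases in *D. melanogaster*. The single values of near-identical copies are uncertain, since reads can be assigned to any of them. When the 4 copies were summed to 1 unit they stood at 42.8 FPKM in *D. melanogaster* and 150 FPKM in *D. simulans*, a shift of 17.1 points on control and 15.7 points on HA food, under the limit. The constitutive chaperones Hsc70-4 (0 points) and Hsp83 (1.03 points) kept their rank. Over the 8 paired heat shock genes the median shift was 12.2 points. The 2 called (25%, against 12.4% of all genes called either way and 4.47% upwards) are the Hsp70 copies Hsp70Ba and Hsp70Bb.

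Metallothioneins, small cysteine-rich proteins that bind copper, zinc and cadmium, ranked lower in *D. simulans* in all 4 paired members. MtnB was listed at 408 FPKM in *D. melanogaster* and 10.4 FPKM in *D. simulans* on control food and at 314 and 5.76 FPKM on HA food. MtnD was at 271 and 8.64 FPKM on control and at 265 and 5.54 FPKM on HA food. Their shifts of -49.8 and -51.9 points widened to -60.1 points each on HA food. The 2 more abundant members kept a high rank in both species, MtnA with 7336 and 2485 FPKM (-2.06 points) and MtnC with 1986 and 513 FPKM (-5.15 points). MtnB has a span of 645 bases in the *D. melanogaster* and 646 bases in the *D. simulans* table and is alone in its locus in both, whereas the MtnD locus is 340 bases long in *D. melanogaster* and 16872 bases, with 1 other gene, in *D. simulans*.

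Antimicrobial peptides are secreted by the fat body under the Toll and Imd pathways. Of 9 paired peptide genes 3 were called, all lower in *D. simulans*, and the median shift was -1.72 points. The called share was 33.3%, against 12.4% of all genes called either way and 7.90% downwards. CecC, a cecropin, was listed at 15.1 FPKM in *D. melanogaster* and 0.86 FPKM in *D. simulans* (-40.5 points), the antifungal peptide gene Mtk at 64.2 and 14.4 FPKM (-27.1 points) and AttA at 13.3 and 2.05 FPKM (-27.8 points). None of these 3 shifts passed the limit on HA food, where they were -13.7, -11.3 and 5.50 points. The locus of Mtk holds 4 other genes in *D. melanogaster*, while Mtk is alone in its locus in *D. simulans*. AttA and AttB are near-identical neighbors, and AttB went the opposite way with 10.03 and 14.5 FPKM (16.8 points). Summed to 1 unit, AttA and AttB shifted by -2.10 points on control food and by 31.8 points on HA food, past the limit. Drs, the most abundant of the peptide genes, kept its rank with 1158 and 826 FPKM (-1.72 points).

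The immune recognition and signaling genes numbered 25, with 1 called upwards (Tep2), 2 called downwards and a median shift of 4.47 points, so their called share of 12% stood beside 12.4% of all genes. Dredd, the caspase of the Imd pathway, was listed at 17.1 and 3.91 FPKM (-27.5 points) and PGRP-SD, a secreted peptidoglycan recognition protein gene, at 14.4 and 3.48 FPKM (-25.1 points). On HA food Dredd remained past the limit with -32.0 points and PGRP-SD did not, with -16.5 points. Dredd shares a locus with the gene listed as l(1)1Bi in both tables, and l(1)1Bi differed the opposite way, with 8.42 and 17.7 FPKM (24.7 points). The locus of PGRP-SD holds 10 other genes in each species. The amidase genes PGRP-SC2 (97.1 and 734 FPKM, 12.7 points) and PGRP-SC1b (55.9 and 270 FPKM, 15.8 points) ranked higher in *D. simulans*, while PGRP-SB1 (32.8 and 10.3 FPKM, -21.6 points) and PGRP-SA (11.5 and 3.25 FPKM, -19.6 points) ranked lower. The core components Tl, imd, Rel and cact shifted by 4.47, 9.62, -9.28 and 7.22 points.

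Small RNA pathway genes (8 paired) had the lowest median shift of the lists with at least 5 members, -7.90 points. The 2 called genes (25%, against 12.4% of all genes called either way and 7.90% downwards) both ranked lower in *D. simulans*. The gene r2d2, the partner of Dicer-2 in the siRNA pathway, was listed at 36.5 FPKM in *D. melanogaster* and 4.67 FPKM in *D. simulans* on control food (-40.5 points) and at 31.9 and 3.45 FPKM on HA food. The gene rhi, which encodes the heterochromatin protein that marks piRNA clusters in the germ line, was at 13.4 and 2.79 FPKM (-25.8 points). AGO1 (-14.8 points), AGO2 (-7.90 points) and Dcr-2 (-7.90 points) also ranked lower, and Dcr-1 ranked higher with 3.69 and 6.15 FPKM (14.1 points). Of the 8 genes 5 ranked lower and 3 higher. The list also holds the chaperone gene Hsp83 (1.03 points), which is counted with the heat shock genes too. The locus of r2d2 spans 10557 bases and is shared with 1 gene in *D. melanogaster*, and it spans 2014 bases in *D. simulans*. For rhi the locus holds 4 other genes in *D. melanogaster* and 3 in *D. simulans*.

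Among genes of the ovary and of chromatin the called genes all ranked lower in *D. simulans*. Of 11 genes of eggshell, yolk and oogenesis 2 were called, Sxl and cid, both lower in *D. simulans*. The called share was 18.2%, against 12.4% of all genes called either way and 7.90% downwards. The median shift of the 11 genes was 0.34 points. The germ line genes otu (59.9 and 19.5 FPKM, -19.6 points) and bam (7.36 and 10.8 FPKM, 17.5 points) differed in opposite directions under the limit. The gene cid, the centromeric histone, was listed at 25.5 and 5.66 FPKM on control food (-30.6 points) and at 25.9 and 3.94 FPKM on HA food. The maternal genes nos (109 and 80.0 FPKM, -2.75 points) and bcd (8.20 and 10.01 FPKM, 12.03 points) and the eggshell gene dec-1 (304 and 282 FPKM, 0.34 points) did not pass the limit. Of the 11 genes of nucleoporins and chromatin, cid and Ntf-2r were called (again 18.2%). Ntf-2r, a retrogene copy of the nuclear transport factor gene Ntf-2 known for testis expression in *D. melanogaster*, was at 14.7 and 0.40 FPKM (-42.6 points), and in *D. simulans* it lies in a locus of 18461 bases with let-7, mir-100, mir-125 and 1 other gene. The hybrid incompatibility genes Hmr (2.45 and 5.14 FPKM, 16.8 points) and Lhr (5.03 and 4.38 FPKM, 5.84 points) were under the limit.

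Among enzymes of metabolism and digestion the called genes were single members. Of 14 genes in the list of central metabolism, Adhr and v were called upwards and Hex-C downwards (21.4%, against 12.4% of all genes), with a median shift of 3.26 points. The list also holds the pigment transporter genes w and st and the Notch pathway transcription factor gene Su(H), which are no metabolic enzymes and were not called. Zw, which encodes glucose-6-phosphate dehydrogenase, was listed at 23.5 and 53.8 FPKM (17.5 points), and Gpdh at 748 and 198 FPKM (-5.84 points). None of the 8 maltase and amylase genes was called (0%, against 12.4% of all genes), and their median shift was 6.36 points. Amy-p was listed at 407 FPKM in *D. melanogaster* and 58.2 FPKM in *D. simulans* (-16.2 points), where its model is 488 bases long against 1668 bases, and its near-identical partner Amy-d at 178 and 279 FPKM (5.15 points). The sum of both shifted by -2.10 points. Of 13 detoxification genes the 2 called were MtnD and MtnB (15.4%, against 12.4% of all genes). Cyp4d2 was the cytochrome P450 gene with the largest shift, at 7.55 and 12.2 FPKM (21.0 points).

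Some lists held no called gene, where 12.4% of all genes were called. Among them are the 13 developmental transcription factor and signaling genes, with a median shift of -1.03 points. Their shifts ranged from -24.7 points for pho to 20.3 points for tra. The 5 genes of cytoskeleton and muscle had a median shift of 1.03 points, and TpnC47D moved furthest with 45.2 and 154 FPKM (16.2 points). The 3 ribosomal protein genes, RpL32, RpS18 and sta, stood among the 5 highest genes in at least 1 species, with shifts between 0 and 1.03 points. The male reproductive list holds 5 genes at 1 FPKM or more. Of these, Acph-1 (-9.28 points) is an acid phosphatase that entered through its symbol only. Only Acp54A1 was called (20%, against 12.4% of all genes).

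**Figure D5:**
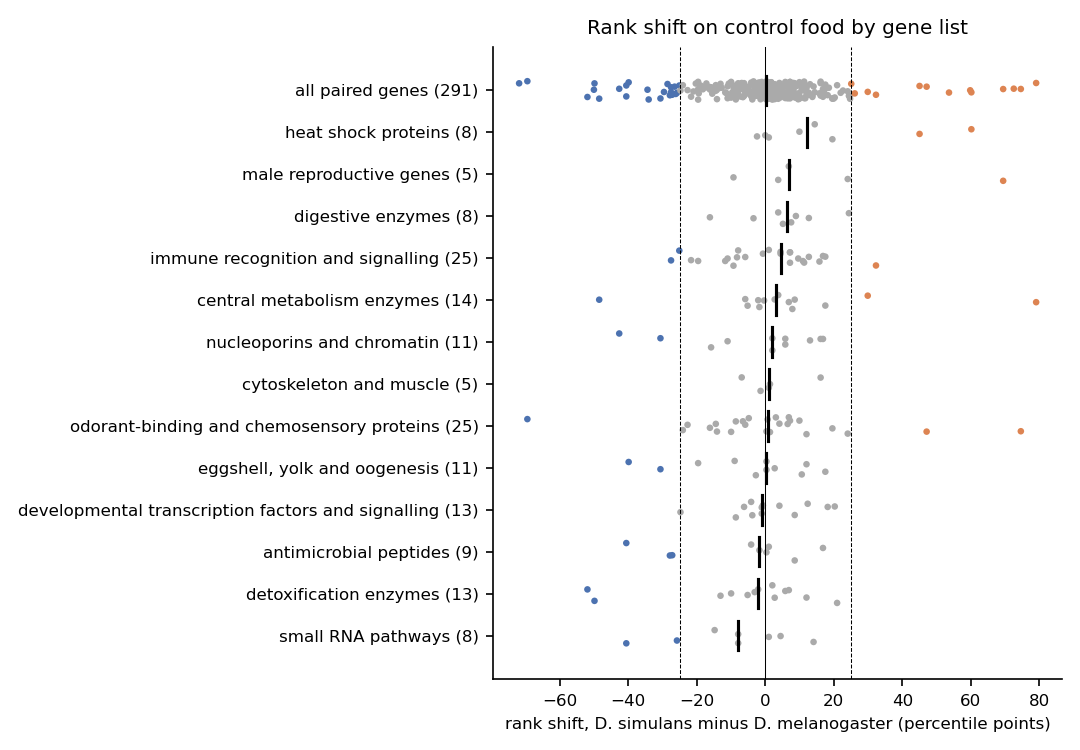
Rank shift on control food (x axis, percentile points, *D. simulans* minus *D. melanogaster*) of each gene (points) in the lists with at least 5 paired genes and in all 291 genes (top row). Bars mark medians, from -7.90 points for small RNA pathways to 12.2 points for heat shock proteins; dashed lines mark 25 points, and vertical scatter within a row has no meaning.

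Only 9 of the 103 paired microRNA genes reached 1 FPKM in either species, in libraries selected for poly-A RNA. Of the 9, 3 were called (33.3%, against 12.4% of all genes). Each of the 3 was listed at 0 FPKM in 1 species on control food and passed the minimum through the other species alone. Their share therefore cannot be read as a result about microRNA genes. The values of these 3 genes differed widely between the diets. The gene mir-100 was listed at 0 FPKM in *D. melanogaster* and 24.3 FPKM in *D. simulans* on control food and at 4.75 and 2.60 FPKM on HA food, so its shift went from 59.8 to -2.06 points. For mir-986 the values were 17.6 and 0 FPKM on control food and 0 FPKM in both species on HA food, and the shift went from -50.0 to 0.17 points. The gene mir-285, with 0 and 49.3 FPKM on control and 0 and 11.1 FPKM on HA food, kept its direction at 72.5 and 47.3 points.

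Locus spans differed between the tables for many genes, and many loci hold more than 1 gene. A locus shared with another gene in at least 1 table was found for 164 of the 291 genes (56.4%), for 6 of the 13 genes called upwards and for 17 of the 23 called downwards. The span of the locus differed by more than 1.5 times for 73 of the 291 genes, 6 of the 13 and 7 of the 23. Where only the 115 genes with spans within 1.5 times and alone in their loci were ranked anew, 10 were called (8.70%), and all 10 were also called among the 291. They are MtnB, CecC, cid, Ras64B and AttA downwards, and Obp83g, Hsp70Ba, v, Crz and mir-285 upwards. The new ranks rest on the same values. AttA and Hsp70Ba have near-identical copies, and summed with these they shifted by -2.10 and 17.1 points, under the limit. CecC and AttA were not past the limit on HA food (-13.7 and 5.50 points). Over the 127 genes alone in their loci in both tables, Spearman's rho between the rank shift and the log2 ratio of spans was -0.13, a description across genes. Exon structure in *D. simulans* was not compared, and the part of the gene models in the shifts of the called genes was not tested.

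The control table of *D. sechellia*, a close relative of *D. simulans*, lists 103 of the 291 genes by symbol. Among these 103 genes rho on control food was 0.72 between *D. melanogaster* and *D. simulans*, 0.68 between *D. sechellia* and *D. simulans* and 0.81 between *D. sechellia* and *D. melanogaster*. When each species was ranked over these 103 genes, the *D. sechellia* percentile lay nearer to that of *D. melanogaster* for 4 of the 5 protein-coding genes called upwards and for 9 of the 10 called downwards. Among the 83 protein-coding genes that were not called it lay nearer to *D. melanogaster* for 45 (54.2%), nearer to *D. simulans* for 33 and equally near for 5, and whether the called genes differ from these was not tested. Desat2 (117 FPKM), MtnB (3704 FPKM), MtnD (161 FPKM), r2d2 (87.6 FPKM) and Sxl (70.4 FPKM) were high in *D. sechellia* as in *D. melanogaster*, and Adhr was low in both (1.30 FPKM in *D. sechellia*). Obp56a was the exception among the genes called downwards and was listed at 0 FPKM in *D. sechellia*, and Tep2 was the exception among those called upwards (33.1 FPKM). The *D. sechellia* reads were longer than those of the other 2 species and were counted in another genome, and the part of either in these values was not tested.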

How the data were processed

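RNA of whole adult females was sequenced after poly-A selection, with 3 libraries for each species and diet. According to the study's methods and the submitters' processing notes, the authors checked reads with FastQC, mapped them with Bowtie2 (BDGP6 for *D. melanogaster*, ASM75419v3 for *D. simulans*) and ran Cuffdiff once per species with geometric normalization and bias correction; versions are not given in the sources used here. The authors deposited 1 FPKM value per gene and diet, pooled over 3 libraries. The authors' own fold changes, test statistics, p and q values of HA against control were not used. The deposited tables hold neither the depth of a library nor an SD, and library depths were not used here.

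Percentiles were computed as 100 × (rank - 0.5) / n with ties averaged. The members and the 20 gene lists were chosen with earlier results of these data known. Named are the 12 protein-coding genes with the largest shift in each direction, the 5 highest in each species, the extremes and the highest gene of each list with at least 5 members, and at most 2 noncoding genes each way; other names were chosen after their values were seen. Of the 291 genes 288 were found in the Ensembl BDGP6 annotation used here, all 288 on the same chromosome, and 287 inside their locus. Starts are counted from 1. Alternatives covered the minimum FPKM (none, 1 in both species, 5 in either), the limit (15 and 35 points), centred log2 ratios, percentiles in the whole table, gene models, noncoding genes and HA food. The ranking was checked on simulated data. Python 3.11.15, pandas 2.3.3, NumPy 2.4.6, SciPy 1.17.1 and matplotlib 3.10.9 were used.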

Additional observations from a re-analysis of the deposited data

How the results depend on the processing

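Limits: the values are pooled, so no replicate could be left out, no error could be given, and low genes cannot be told from noise. No paired analysis was possible because the columns carry no replicate. The counts of 13 genes ranked higher and 23 ranked lower in *D. simulans* became 37 and 43 at a limit of 15 points, and the lower count became 10 at 35 points. Without a minimum FPKM 12 of 462 genes ranked lower and rho rose to 0.92, where many paired genes are at or near 0 in both species. Among the 115 genes with like locus spans and alone in their loci 5 ranked higher and 5 lower, with rho 0.86. Among 132 protein-coding genes without overlapping exons and alone in their *D. simulans* locus (chosen after seeing the data) 5 ranked higher and 7 lower. Fewer genes were ranked in both settings. A centred log2 ratio of at least 2 gave 20 higher genes with a pseudocount of 0.1. The other alternatives, among them HA food and summed copies, kept both counts within 1.5 times. Of the 36 called genes, 35 were also called by the percentile in the whole table and 21 by the centred log2 ratio with a pseudocount of 1. For the 13 lists with at least 5 members, run on HA food and with the percentile in the whole table, no median moved by 5 points or more. Of the smaller lists, the median of meiosis and DNA repair (4 genes) went from 3.09 to -4.47 points and that of larval serum and fat body proteins (2 genes) from -7.04 to -22.7 points on HA food. Of 58 named genes, mir-100 (-2.06 points) and mir-986 (0.17 points) reversed on HA food, where CecC and Es2 lost their call. The other called genes under the limit on HA food were AttA, Mtk and PGRP-SD.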

Other observations

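For 7 of the 282 protein-coding genes the rank shift between the species changed by 20 points or more between the diets. Of these 7 genes 5 are inducible immune genes, with the near-identical AttA and AttB counted as 2. The 282 genes hold 9 antimicrobial peptide genes and 25 genes of immune recognition and signaling. Whether immune genes are more frequent among the 7 was not tested. AttC was listed at 16.6 FPKM in *D. melanogaster* and 12.2 FPKM in *D. simulans* on control food (0.34 points) and at 1.82 and 16.3 FPKM on HA food (45.7 points). AttB went from 16.8 to 42.3 points and AttA from -27.8 to 5.50 points, and their sum went from -2.10 to 31.8 points. PGRP-SB1 went from -21.6 to 2.06 points and CecC from -40.5 to -13.7 points. In each of the 5 immune genes the *D. melanogaster* value was lower on HA food, for PGRP-SB1 32.8 and 13.9 FPKM. The other 2 genes are Fbp2, a fat body protein gene that was listed at 17.2 and 38.7 FPKM in *D. melanogaster* and at 15.2 and 10.9 FPKM in *D. simulans* (1.72 and -22.7 points), and Ama, an immunoglobulin-domain gene at 2.93 and 8.17 FPKM in *D. simulans* (8.93 and 31.3 points). These differences between diets were not tested.

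By chromosome arm of *D. melanogaster*, the called share ran from 7.94% of 63 genes on X to 17.5% of 57 genes on 2R. On the small chromosome 4, which is largely heterochromatic, 6 of 7 paired genes ranked lower in *D. simulans* on control food and all 7 on HA food, with median shifts of -8.25 and -11.0 points. The synaptic gene unc-13 was listed at 12.8 and 2.05 FPKM and pho, a Polycomb group gene, at 73.6 and 16.6 FPKM. Both ci (6.13 and 2.07 FPKM) and pan (5.24 and 1.51 FPKM) shifted in the same direction, by -8.25 and -9.97 points, while Rad23 changed direction with 4.12 points on control and -4.12 points on HA food. Over all 291 genes 137 ranked lower in *D. simulans* on control food. Of the 7 genes only unc-13 was called on control food (14.3%, against 12.4% of all genes). With 7 genes this is a description only.

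The 171 paired genes below 1 FPKM in both species comprise 94 microRNA genes and 77 protein-coding genes, and 108 of the 171 were listed at 0 in both. They include 19 of the 44 odorant-binding protein genes and 13 of the 14 Acp genes.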
